A study of Mus musculus with 18 samples.

Results

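The Toll-like receptor genes were followed in mouse dendritic cells. Members were 10 genes of the family, Tlr1, Tlr2, Tlr3, Tlr4, Tlr6, Tlr7, Tlr8, Tlr9, Tlr11 and Tlr13, each read from the probe set that carries its symbol alone. Of these, 9 had such a probe set, 1 each, and all 9 were among the 15365 genes tested of 19752 with a probe set of 1 symbol. Tlr11 was not analysed here.

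The study hybridised RNA of 18 samples to 1-colour Affymetrix gene arrays, 9 per genotype. Every animal carried the floxed BRAFV600E(CA-flox) allele. Animals positive for CD11c-Cre, in which the regulatory sequence of the dendritic cell integrin CD11c drives the recombinase, are called BRAF here, and their Cre-negative littermates are called WT. There were 4 populations in each genotype, all untreated. Bone marrow derived dendritic cells (BMDC) were cultured from femurs of mice aged 5 weeks, sorted as live CD11c+CD11b+ cells and run on 3 arrays per genotype. From mice aged 14 weeks, CD11b+ cells of the liver and CD11b+ and CD103+ cells of the lung were sorted with no further gate given, and each was run on 2 arrays per genotype. The labels number the replicates and do not say whether they came from different animals, so p-values rest on a spread between samples that may be technical. In bulk RNA, fewer cells of a type and less RNA per cell cannot be told apart.

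Toll-like receptors are membrane proteins that bind microbial products through leucine-rich repeats and signal through a cytoplasmic TIR domain. TLR1, TLR2, TLR4 and TLR6 sit at the cell surface and sense lipoproteins or lipopolysaccharide, while TLR3, TLR7, TLR8, TLR9, TLR11 and TLR13 reach endosomes with the chaperone UNC93B1 and sense nucleic acids or, for TLR11, profilin. Most signal through the adaptor MyD88, TLR3 through TRIF, and TLR4 through both. Dendritic cell subsets are known to differ in the receptors they carry, and cross-presenting CD103+ cells are known for TLR3.

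The 250 bases upstream of the start (RefSeq, GRCm38.p6) are shown for 4 members called below in different patterns: Tlr1, low in BMDC and lung CD103+ cells, Tlr3, high in lung CD103+ cells, Tlr9, called between genotypes, and Tlr8, whose call was the least stable of these. RefSeq promoter entries matched 8 of the 10 members, and Tlr4 and Tlr7 had none. Capitals mark matches to 5 motifs searched on both strands: the interferon response core (GAAA, any 2 bases, GAAA), the ETS-IRF composite (GGAA, any 2 bases, GAAA), the PU.1 core GAGGAA, the AP-1 site TGANTCA and an NF-kB site (GGGA, any base, TTTCC). These are matches of letters and show no binding.
Tlr1, first start, chr5:64932700-64932949, minus strand: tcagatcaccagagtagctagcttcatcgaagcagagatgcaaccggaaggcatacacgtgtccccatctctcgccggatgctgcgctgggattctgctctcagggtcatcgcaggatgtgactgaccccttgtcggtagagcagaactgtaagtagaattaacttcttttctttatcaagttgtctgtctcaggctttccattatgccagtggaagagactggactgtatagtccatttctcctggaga
Tlr1, other start, chr5:64933559-64933808, minus strand: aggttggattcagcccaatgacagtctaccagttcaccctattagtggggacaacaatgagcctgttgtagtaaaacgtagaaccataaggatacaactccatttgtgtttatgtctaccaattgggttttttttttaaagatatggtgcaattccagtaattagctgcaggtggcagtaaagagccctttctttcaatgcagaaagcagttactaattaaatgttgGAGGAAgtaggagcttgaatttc
Tlr3, chr8:45410381-45410630, minus strand: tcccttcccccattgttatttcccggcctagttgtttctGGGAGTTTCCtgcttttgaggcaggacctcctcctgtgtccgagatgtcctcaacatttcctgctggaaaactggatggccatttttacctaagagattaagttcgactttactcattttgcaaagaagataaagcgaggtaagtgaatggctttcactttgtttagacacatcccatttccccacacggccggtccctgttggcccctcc
Tlr8, chrX:167264330-167264579, minus strand: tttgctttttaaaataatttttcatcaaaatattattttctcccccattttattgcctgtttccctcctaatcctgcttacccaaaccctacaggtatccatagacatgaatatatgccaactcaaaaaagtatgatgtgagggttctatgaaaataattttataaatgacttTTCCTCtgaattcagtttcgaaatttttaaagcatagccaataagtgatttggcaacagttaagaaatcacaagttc
Tlr9, chr9:106222348-106222597, plus strand: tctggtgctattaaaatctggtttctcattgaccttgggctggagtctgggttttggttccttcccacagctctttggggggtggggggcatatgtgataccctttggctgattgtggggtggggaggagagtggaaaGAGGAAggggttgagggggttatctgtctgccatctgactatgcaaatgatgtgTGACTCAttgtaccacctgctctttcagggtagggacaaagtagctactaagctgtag
The Tlr3 window held the NF-kB letters 211 to 202 bases before the start, which 0.356% of 32841 promoters of this length hold. The Tlr8 window held the PU.1 core on the opposite strand 77 to 72 bases before the start, and the window of the other Tlr1 start held it on the strand of the gene 23 to 18 bases before. On either strand the core is found in 23.3% of promoters. No motif was matched at the first Tlr1 start. The Tlr1 starts are ordered by coordinate, so on the minus strand this one lies downstream of the other. In the Tlr9 window the PU.1 core lay 112 to 107 bases and the AP-1 site (6.75% of promoters) 58 to 52 bases before the start. None of these windows held the interferon response core (2.98% of promoters) or the ETS-IRF composite (2.3%). Among the members not shown, the interferon response core was matched at a Tlr6 start and at Tlr11. Tlr1 and Tlr6 are neighbours on chromosome 5 and Tlr7 and Tlr8 on chromosome X, where Tlr13 also lies (RefSeq, GRCm38.p6).

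Values are log2 of the deposited intensity, on which array medians ran from 6.55 to 6.82 and the 30th percentile of all probe sets, used as the detection floor, from 5.60 to 6.11. Tlr7 was above it on 17 of 18 arrays and each of the other 8 members on 18. Genes of the sort markers went with the labels: Itgae, which encodes CD103, read 10.60 to 12.18 on the CD103+ arrays and at most 7.65 elsewhere. Itgam, which encodes CD11b, read 9.32 to 11.92 on the BMDC and CD11b+ arrays and 6.87 to 8.39 on the CD103+ arrays. On the CD103+ arrays it was higher in BRAF (8.21 and 8.39) than in WT (6.87 and 6.90). Itgax, which encodes CD11c, read 10.66 to 12.18 on every array. BRAF BMDC replicate 2 and WT liver replicate 3 stood apart by a narrow interquartile range of 1.90 and 1.92, against 2.41 to 3.00 on the other arrays. Sex was mixed: the X inactivation transcript Xist was low (5.08 to 6.08) on all BMDC arrays and on both lung arrays of BRAF replicate 2 (5.20 and 5.40) and read 10.33 to 12.29 on the others. The Y-linked Eif2s3y read 7.0 to 7.47 beside high Xist on the 3 organ arrays of WT replicate 3.

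**Figure D1:**
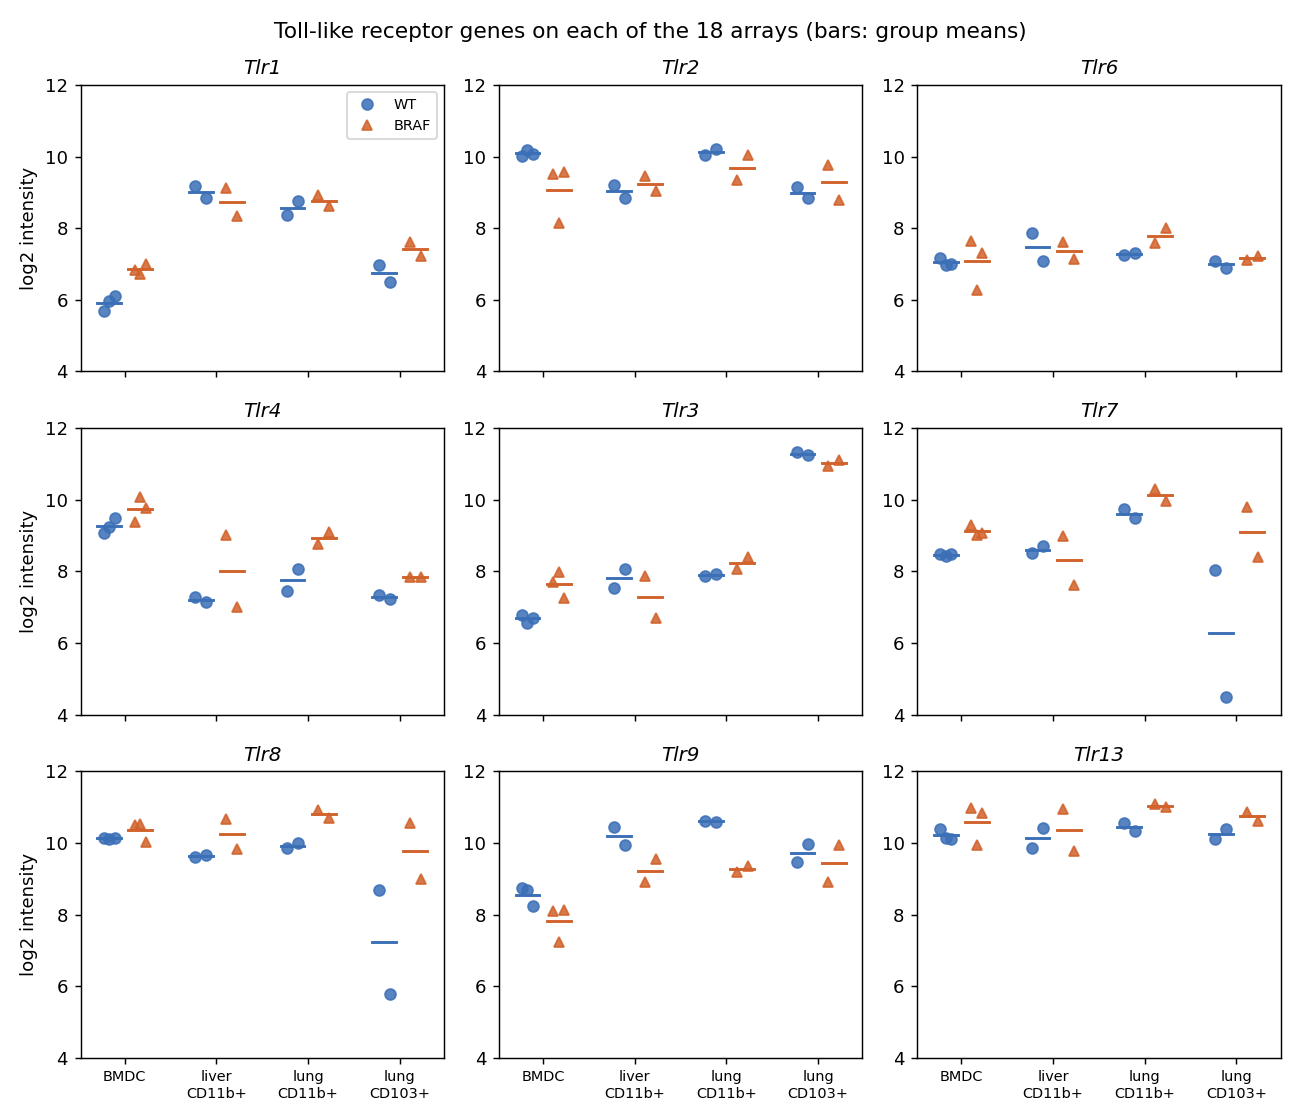
Each point is 1 array, with log2 intensity on the vertical axis and the 4 populations on the horizontal axis, circles for WT and triangles for BRAF, and bars for group means. Tlr3 is highest on the 4 lung CD103+ arrays (10.94 to 11.33), and Tlr7 and Tlr8 are lowest on WT lung CD103+ replicate 3 (4.49 and 5.79).

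Of the differences called for these genes, 8 lay between populations and 1 between genotypes. Lung CD103+ cells carried 8.5-fold more Tlr3 RNA than lung CD11b+ cells and less Tlr1, Tlr7 and Tlr8, and BMDC carried less Tlr1, Tlr9 and Tlr3 and more Tlr4 than lung CD11b+ cells. Across genotypes, Tlr9 fell in BRAF cells on the mean over the 4 populations. These statements come from a limma fit of group means over all 18 arrays, in which a gene was called at a Benjamini-Hochberg adjusted p under 0.05 over all genes tested. Population differences are the mean of the WT and BRAF group means, and the 3 of them share the lung CD11b+ arrays. Group means of Tlr3 spanned 4.60 log2 units, the widest of the 9 members, followed by Tlr7 (3.86), Tlr8 (3.58), Tlr1 (3.10), Tlr9 (2.78) and Tlr4 (2.53). Tlr2 (1.14), Tlr13 (0.90) and Tlr6 (0.80) spanned less, against 0.758 for the median gene.

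In lung CD103+ minus lung CD11b+ cells, 4 of 9 members were called, where 5.64% of all genes were (2.51% higher and 3.13% lower). Tlr3 was higher, and Tlr1, Tlr7 and Tlr8 were lower. The median over the 9 members was -0.78 against 0.03 over all genes, and 8 of 9 were negative. In liver CD11b+ minus lung CD11b+ cells none of 9 was called by limma, where 2.12% of genes were, although 4 members and 3128 genes had an unadjusted p under 0.05. In BMDC minus lung CD11b+ cells 4 of 9 were called, where 11.7% of genes were (6.01% higher and 5.71% lower). Tlr4 was higher, and Tlr1, Tlr3 and Tlr9 were lower. In that last comparison culture, the age of the mice and Xist differ with the population and cannot be told apart.

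**Figure D2:**
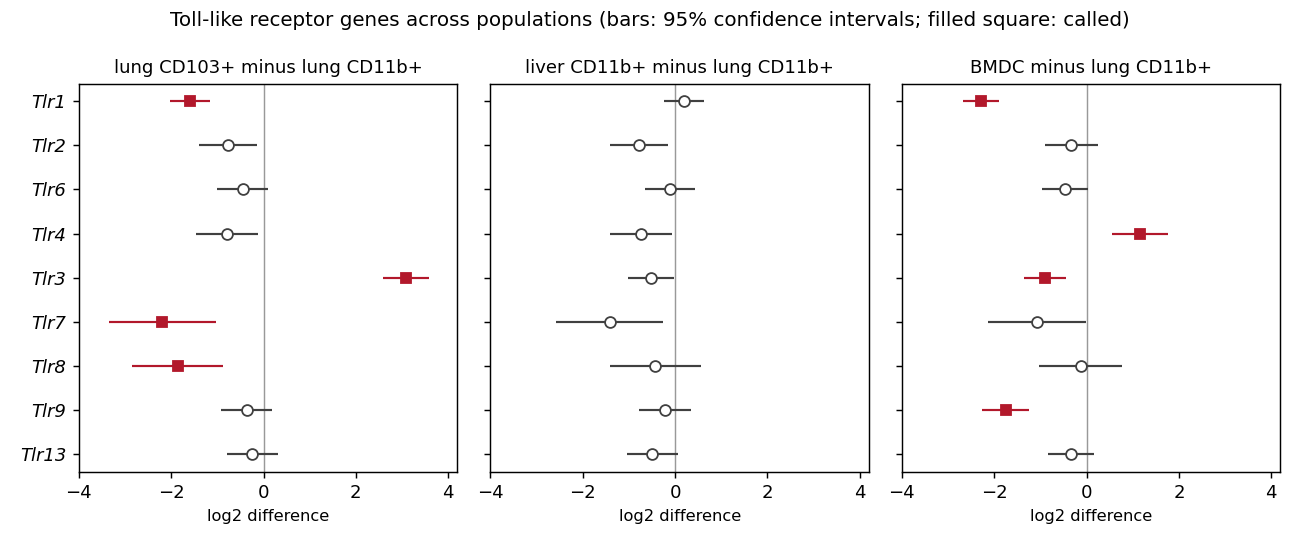
The horizontal axis is the log2 difference between 2 populations for each of the 9 members, with 95% confidence intervals, and filled squares mark called genes. Tlr3 lies at 3.09 in lung CD103+ minus lung CD11b+ cells, and Tlr1 at -2.29 and Tlr4 at 1.16 in BMDC minus lung CD11b+ cells.

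Between genotypes, no member was called by limma within a single population. The share of all genes called was 0.521% for BMDC, 0.215% for liver CD11b+, 0.338% for lung CD11b+ and 0.0846% for lung CD103+ cells. At an unadjusted p under 0.05 there were 4 members (1022 genes) in BMDC, 1 (2170 genes) in liver, 2 (1031 genes) among lung CD11b+ and 3 (655 genes) among lung CD103+ cells. On the mean over the 4 populations, 1 of 9 members, Tlr9, was called, where 0.989% of genes were. The F test of whether the genotype difference varied between populations called none of 9 members and 0.124% of genes, with an unadjusted p under 0.05 for 1398 genes, so no genotype difference below is shown to be particular to a population. The median genotype difference over the members was 0.37 in BMDC and -0.10 in liver, with 0.52 in CD11b+ and 0.49 in CD103+ cells of the lung, against 0.00, 0.08, 0.00 and -0.08 over all genes.

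Several members nevertheless had BRAF and WT arrays that did not overlap. In BMDC, the BRAF arrays lay all above WT for 3 members and all below for 2, where 6.99% and 9.08% of genes did so. In liver this held for 1 member each way (22.7% of genes above, 15.8% below). In lung CD11b+ cells it held for 6 above and 2 below (21.6% and 24.8% of genes), and in lung CD103+ cells for 6 above and 1 below (9.16% and 19.3%). Over the whole table such separation was seen for 9.16% to 24.8% of genes each way with 2 arrays a group. In BMDC, with 3, it was seen for fewer. The member counts were not tested against these shares.

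**Figure D3:**
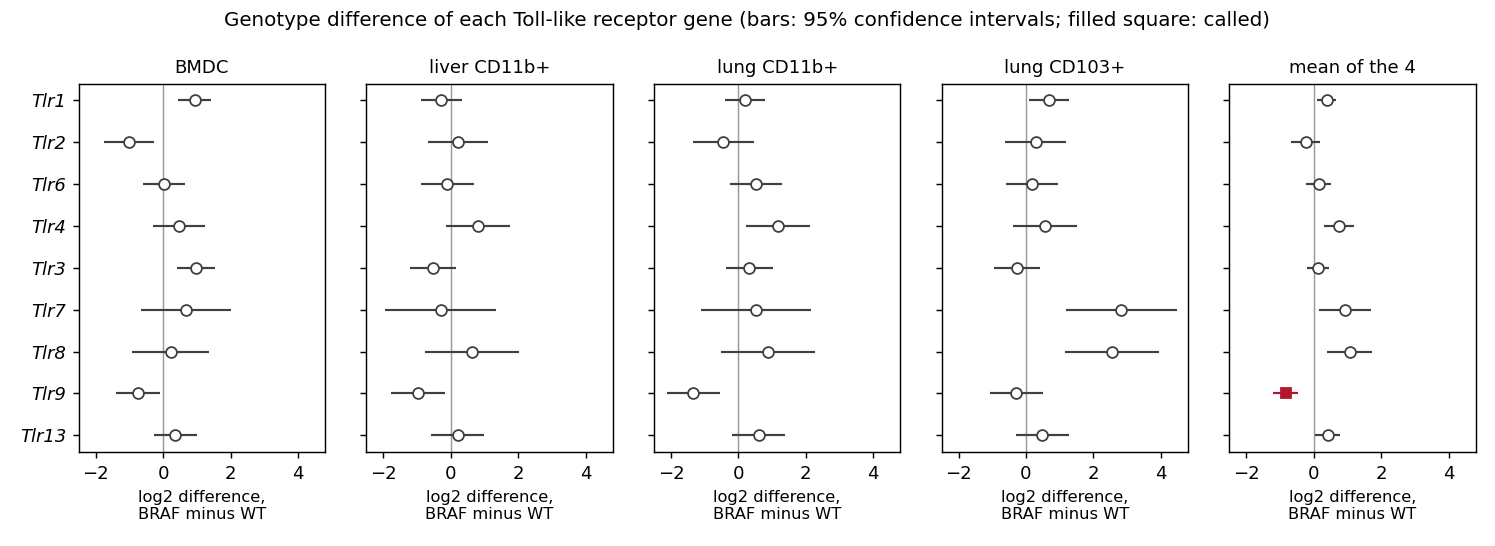
The horizontal axis is the BRAF minus WT log2 difference of each of the 9 members in the 4 populations and on their mean, with 95% confidence intervals. The filled square marks the 1 called value, Tlr9 at -0.83 on the mean, and the widest intervals are those of Tlr7 and Tlr8.

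Among the surface receptors, Tlr1, whose protein pairs with TLR2 to bind triacylated lipopeptides, was high in CD11b+ organ cells and low in BMDC. It read 5.67, 5.96 and 6.09 on the WT BMDC arrays and 6.83, 6.71 and 6.99 on the BRAF BMDC arrays. In liver CD11b+ cells it read 9.17 and 8.83 (WT) and 9.12 and 8.33 (BRAF), and in lung CD11b+ cells 8.38 and 8.76 (WT) and 8.92 and 8.61 (BRAF). In lung CD103+ cells it read 6.98 and 6.49 (WT) and 7.60 and 7.22 (BRAF), so that liver and lung CD11b+ arrays overlapped each other and lay above all arrays of the other populations. Tlr1 was lower in lung CD103+ than in lung CD11b+ cells by a log2 difference of -1.59 ± 0.20 (SE; adjusted p 0.00014, limma) and in BMDC by -2.29 ± 0.18 (adjusted p 1.07e-06), a 4.89-fold difference. The liver minus lung difference was 0.20 ± 0.20, with a 95% interval from -0.23 to 0.62. All BRAF arrays were above all WT arrays in BMDC (0.94 ± 0.23, unadjusted p 0.00105, adjusted p 0.12) and in lung CD103+ cells (0.68 ± 0.28), but neither difference passed the test. Over the 18 arrays the genes whose pattern was most like that of Tlr1 were Ms4a6c, Ms4a6b and Ms4a4c, each with a Pearson r of 0.96. These points share arrays and populations, and Ms4a4c is one of the monocyte markers listed here.

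Tlr2, the shared partner of TLR1 and TLR6 for bacterial lipoproteins, had no difference between populations that passed the test. On WT BMDC arrays it read 10.02, 10.18 and 10.06, and on BRAF BMDC arrays 9.52, 8.15 and 9.56, with every BRAF array lower. Lung CD11b+ cells read 10.06 and 10.21 (WT) and 9.34 and 10.04 (BRAF), again with BRAF lower. Liver read 9.21 and 8.85 (WT) and 9.44 and 9.04 (BRAF), and lung CD103+ cells 9.14 and 8.84 (WT) and 9.75 and 8.80 (BRAF), with overlapping genotypes. The BMDC difference was -1.01 ± 0.34 (unadjusted p 0.00969, adjusted p 0.466), and without BRAF BMDC replicate 2, an array of narrow spread, it was -0.55. Lung CD103+ and liver CD11b+ cells each read 0.78 below lung CD11b+ cells on the log2 scale (differences of -0.78 ± 0.30, adjusted p 0.192 and 0.17), which did not pass the test.

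Tlr6, whose protein pairs with TLR2 for diacylated lipopeptides, stayed between 6.27 and 8.0 on all arrays. Group means ran from 6.98 ± 0.16 (SD, n = 2) in WT lung CD103+ cells to 7.79 ± 0.30 (SD, n = 2) in BRAF lung CD11b+ cells. No population or genotype difference of Tlr6 passed the test, and the largest, 0.52 ± 0.36 in lung CD11b+ cells, had BRAF arrays (7.58 and 8.0) above both WT arrays (7.25 and 7.29). In BMDC the difference of 0.02 ± 0.30 turned to -0.13 after quantile normalization and -0.06 after median centring. Although the 2 genes are neighbours, Tlr1 spanned 3.10 and Tlr6 0.80 log2 units over the groups, and their r over the 18 arrays was 0.57.

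Tlr4, which encodes the lipopolysaccharide receptor, was highest in BMDC. It read 9.07, 9.23 and 9.49 (WT) and 9.38, 10.08 and 9.76 (BRAF) there, and 7.44 and 8.06 (WT) and 8.76 and 9.10 (BRAF) in lung CD11b+ cells. Lung CD103+ cells read 7.33 and 7.22 (WT) and 7.84 and 7.84 (BRAF), and liver 7.28 and 7.14 (WT) and 9.0 and 7.02 (BRAF). The BMDC arrays did not overlap those of lung CD103+ or liver cells, while BRAF lung CD11b+ replicate 2 (9.10) exceeded the lowest BMDC array. BMDC minus lung CD11b+ cells gave 1.16 ± 0.29 (adjusted p 0.0153), a call lost without WT lung CD11b+ replicate 1 (1.01, adjusted p 0.0971) or BRAF lung CD11b+ replicate 1 (1.08, adjusted p 0.0722).

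The genotype difference of Tlr4 was positive in all 4 populations, as for 4.99% of genes, at 1.19 ± 0.45 for lung CD11b+ and 0.56 ± 0.45 for lung CD103+ cells, 0.80 ± 0.45 for liver and 0.48 ± 0.36 for BMDC. Both lung populations had BRAF above WT without overlap. On the mean it was 0.76 ± 0.21 (unadjusted p 0.00298, adjusted p 0.133), which did not pass. The liver value turned on which BRAF array was in the fit: it was -0.19 without replicate 2 and 1.80 (adjusted p 0.0459) without replicate 3, when the mean was 1.01 (adjusted p 0.00207). Nearest in pattern to Tlr4 were Scel (r = 0.91), Prdx1, a peroxiredoxin (0.91), and Cd200r1, an inhibitory receptor of myeloid cells (0.90).

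Among the endosomal receptors, Tlr3, which encodes the receptor for double-stranded RNA, marked the lung CD103+ arrays. There it read 11.33 and 11.25 (WT) and 10.94 and 11.11 (BRAF), and no array of another population exceeded 8.39. Lung CD11b+ cells read 7.87 and 7.94 (WT) and 8.08 and 8.39 (BRAF), and liver 7.54 and 8.08 (WT) and 7.87 and 6.70 (BRAF). BMDC read 6.78, 6.56 and 6.71 (WT) and 7.71, 7.99 and 7.26 (BRAF). Lung CD103+ minus lung CD11b+ was 3.09 ± 0.23 (adjusted p 8.03e-07), and BMDC minus lung CD11b+ was -0.90 ± 0.21 (adjusted p 0.0104). The BMDC call was lost without BRAF lung CD11b+ replicate 2 (-0.82, adjusted p 0.0516) and after quantile normalization (-0.82, adjusted p 0.0606). Liver and lung CD11b+ cells differed by -0.52 ± 0.23 (adjusted p 0.222).

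Within BMDC, every BRAF array of Tlr3 was above every WT array, with a difference of 0.97 ± 0.27 (unadjusted p 0.00237, adjusted p 0.21) that did not pass. In liver the difference was -0.52 ± 0.32, in lung CD11b+ cells 0.33 ± 0.32 and in lung CD103+ cells, where Tlr3 was highest, -0.26 ± 0.32. Of the members Tlr3 had the largest F for a difference between these values (5.19), with an adjusted p of 0.402. The genes most like Tlr3 over the 18 arrays were the chemokine receptor Cxcr3 (r = 0.97), Gcsam (0.96) and Gramd2 (0.96). Gcsam is among the 8 listed markers of conventional type 1 dendritic cells (cDC1), the lineage of lung CD103+ cells. The mean of those markers followed Tlr3 with r = 0.96, and 7 of the 8 were called higher in lung CD103+ than in lung CD11b+ cells. On the lung CD103+ arrays the cDC1 mean was 11.05 to 11.60, against 7.21 to 8.34 on all others.

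Tlr7 and Tlr8 encode receptors of single-stranded RNA and its breakdown products, and their arrays moved together. Tlr7 read 8.47, 8.42 and 8.47 (WT) and 9.29, 9.02 and 9.07 (BRAF) in BMDC, and 9.73 and 9.49 (WT) and 10.30 and 9.96 (BRAF) in lung CD11b+ cells. In both of these populations the BRAF arrays lay above WT. Liver read 8.51 and 8.70 (WT) and 9.0 and 7.62 (BRAF). Lung CD103+ cells read 8.04 and 4.49 (WT) and 9.79 and 8.39 (BRAF), and the WT replicate at 4.49 was below the detection floor of its array.

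Tlr8 read 10.14, 10.12 and 10.14 (WT) and 10.51, 10.52 and 10.04 (BRAF) in BMDC, and 9.60 and 9.66 (WT) and 9.85 and 10.67 (BRAF) in liver. Lung CD11b+ cells read 9.86 and 9.99 (WT) and 10.92 and 10.71 (BRAF), and lung CD103+ cells 8.68 and 5.79 (WT) and 10.56 and 9.01 (BRAF). In the 3 organ populations every BRAF array of Tlr8 was above every WT array. Separation of that kind in 3 or 4 populations was seen for 1.77% of genes, among them Tlr7 in BMDC and both lung populations.

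In lung CD103+ cells the genotype difference was 2.82 ± 0.77 for Tlr7 (unadjusted p 0.0023, adjusted p 0.307) and 2.55 ± 0.65 for Tlr8 (unadjusted p 0.00139, adjusted p 0.246). Neither passed, and both turned on the WT arrays. Without WT lung CD103+ replicate 3 the differences were 1.05 and 1.10. Without WT lung CD103+ replicate 1 both were called (adjusted p 0.000658 for Tlr7, and 3.99 with adjusted p 0.000853 for Tlr8), as were the F tests (adjusted p 0.0224 and 0.0385). That fit has 1 WT array, taken to vary like the other groups, and its Tlr7 reading lies below the detection floor, so the size for Tlr7 is not given. On the mean over populations Tlr8 gave 1.07 ± 0.31 (adjusted p 0.147) and Tlr7 0.93 ± 0.37 (adjusted p 0.386), and both were called without that replicate 1 (adjusted p 0.00254 and 0.00584). Tlr8 was positive in each population, as for 4.99% of genes. It was 0.22 ± 0.53 in BMDC, 0.63 ± 0.65 in liver and 0.89 ± 0.65 in lung CD11b+ cells, while Tlr7 was -0.29 ± 0.77 in liver.

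Macrophage markers moved with Tlr7 and Tlr8. The mean of 9 such genes was 8.14 and 6.70 on the WT lung CD103+ arrays, replicates 1 and 3, and 10.30 and 8.63 on the BRAF ones, against 10.32 to 11.09 in lung CD11b+ cells. Mrc1, the mannose receptor gene in that list, read 8.39 and 5.16 on the WT and 11.15 and 9.37 on the BRAF lung CD103+ arrays, and Adgre1, which encodes F4/80, read 8.58 and 6.92 and then 10.32 and 9.42. None of the 9 passed the genotype test in lung CD103+ cells, where their median difference was 2.12. The 6 monocyte markers tested had a median difference of 1.11 there, none called. The part of these cells in the Tlr7 and Tlr8 values was not tested.

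Between populations, lung CD103+ minus lung CD11b+ cells gave -2.19 ± 0.54 for Tlr7 (adjusted p 0.0247) and -1.86 ± 0.46 for Tlr8 (adjusted p 0.024), and 7 of the 9 macrophage markers were called lower in the same comparison. Without WT lung CD103+ replicate 3 the differences were -1.30 and -1.14. Both calls were lost without any 1 of the 4 lung CD11b+ arrays or without BRAF lung CD103+ replicate 2, with adjusted p from 0.0502 to 0.142 for Tlr7 and from 0.0526 to 0.146 for Tlr8. That of Tlr8 was also lost without WT lung CD103+ replicate 3 (adjusted p 0.0562). Tlr7 was lower in liver (-1.41 ± 0.54, adjusted p 0.173) and in BMDC (-1.08 ± 0.50, adjusted p 0.207) than in lung CD11b+ cells by differences that did not pass.

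**Figure D4:**
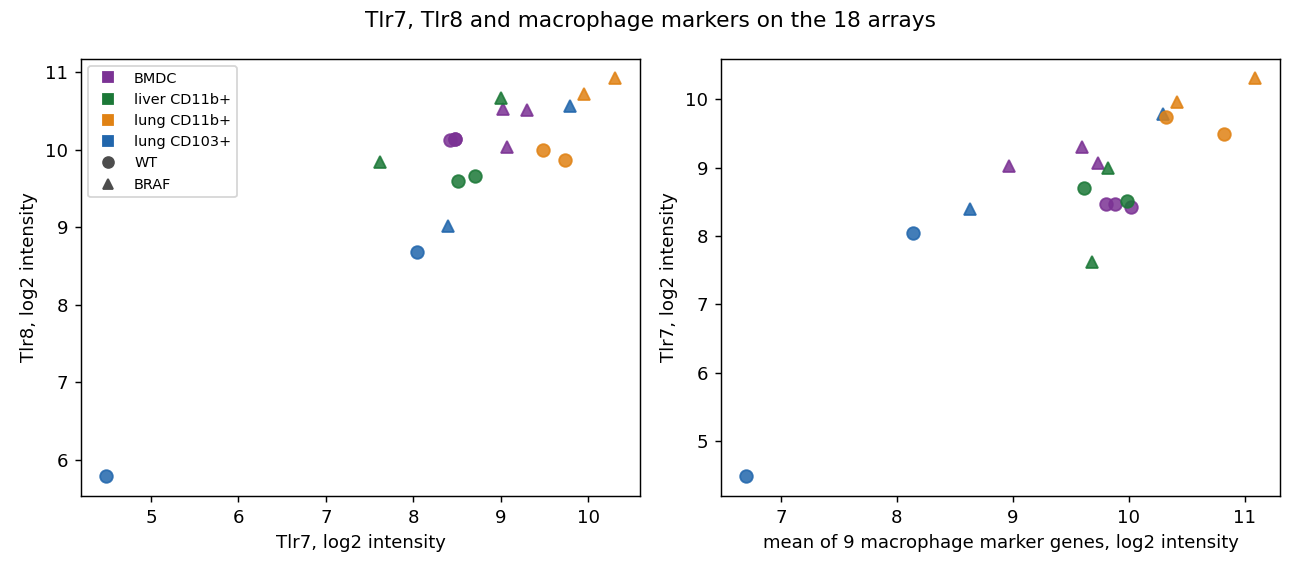
Points are the 18 arrays, coloured by population, circles for WT and triangles for BRAF, with log2 intensity on both axes: Tlr8 against Tlr7 on the left, and Tlr7 against the mean of 9 macrophage markers on the right. WT lung CD103+ replicate 3 lies apart at the lower left of both panels, with Tlr7 at 4.49 and Tlr8 at 5.79.

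Across the 18 arrays Tlr7 and Tlr8 had a Pearson r of 0.90 and a Spearman rho of 0.71. Without the 2 arrays farthest from the median of Tlr7 (WT lung CD103+ replicate 3 and BRAF lung CD11b+ replicate 1) r was 0.59, so the height of r rests on those arrays. The macrophage marker mean had an r of 0.86 with Tlr7 and 0.85 with Tlr8, which became 0.63 and 0.49 without the 2 WT lung CD103+ arrays. After Tlr8, the genes nearest to Tlr7 were C5ar1, the receptor of the complement fragment C5a (r = 0.90), and Adgre1 (0.90). Nearest to Tlr8 were the Fc receptor gene Fcgr3 (0.95), the transcription factor gene Zeb2 (0.94) and Ctsa, a lysosomal protease (0.94).

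Because Tlr7, Tlr8 and Tlr13 are X-linked, their values are set beside Xist. In the lung, both WT replicates and BRAF replicate 1 had high Xist, and BRAF replicate 2 had low Xist. WT replicate 3 also read the Y-linked Eif2s3y at 7.47 (lung CD11b+) and 7.31 (lung CD103+), against 3.68 and 4.07 on WT replicate 1. Its lung CD103+ array is the one with Tlr7 at 4.49 and Tlr8 at 5.79. BRAF lung CD11b+ replicate 1, with Xist at 11.90, read 10.30 for Tlr7, 10.92 for Tlr8 and 11.08 for Tlr13, and replicate 2, with Xist at 5.20, read 9.96, 10.71 and 11.01, all above both WT arrays. BRAF lung CD103+ replicate 1, with Xist at 12.22, read 9.79 for Tlr7, 10.56 for Tlr8 and 10.86 for Tlr13, and replicate 2, with Xist at 5.40, read lower, at 8.39, 9.01 and 10.63. The part of sex in these values was not tested. In BMDC all 6 arrays had low Xist, and in liver all 4 had high Xist, with Eif2s3y at 7.0 on WT replicate 3.

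Tlr9, which encodes the receptor for unmethylated CpG DNA, was the member called between genotypes. In lung CD11b+ cells it read 10.61 and 10.60 on the WT and 9.19 and 9.36 on the BRAF arrays. In liver it read 10.45 and 9.95 (WT) and 8.91 and 9.55 (BRAF), and in BMDC 8.75, 8.69 and 8.24 (WT) and 8.11, 7.23 and 8.13 (BRAF). In these 3 populations every BRAF array was below every WT array, which 2.06% of genes showed in 3 or 4 populations. Lung CD103+ cells read 9.46 and 9.97 (WT) and 8.92 and 9.94 (BRAF), and there the genotypes overlapped.

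The genotype differences of Tlr9 were -1.33 ± 0.37 in lung CD11b+ (unadjusted p 0.00273, adjusted p 0.198), -0.97 ± 0.37 in liver (adjusted p 0.282), -0.74 ± 0.30 in BMDC (adjusted p 0.67) and -0.29 ± 0.37 in lung CD103+ cells. A negative value in all 4 was found for 5.66% of genes. On their mean Tlr9 fell by 0.83 ± 0.18 on the log2 scale (adjusted p 0.0382), a 1.78-fold difference, while the F test found no difference between populations past the threshold (adjusted p 0.707). Without BRAF BMDC replicate 2 the BMDC value was -0.44. The lung CD103+ value ran from -0.80 to 0.22 over 14 other settings and changed sign in 1.

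The call on the mean was close to the threshold. It was kept in 8 of 18 fits that left out 1 array. It was lost without WT BMDC replicate 1 or 2, WT liver replicate 1, WT lung CD11b+ replicate 1 or 3, WT lung CD103+ replicate 3, BRAF liver replicate 2, BRAF lung CD11b+ replicate 1 or 2 or BRAF lung CD103+ replicate 1. In those fits the difference was -0.85 to -0.70, with adjusted p from 0.0519 to 0.105. It was also lost after median centring (-0.84, adjusted p 0.0856) and with the replicate number as a block within BMDC (-0.83, adjusted p 0.0643).

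Markers of other cells are set beside Tlr9. The mean of 6 B cell genes, a lineage known for TLR9, was 8.06 and 7.03 on the WT and 6.58 and 6.34 on the BRAF lung CD11b+ arrays, and 6.56 and 6.72 against 6.20 and 6.17 in liver. Ms4a1, which encodes CD20, read 8.33 and 7.77 on the WT and 5.91 and 5.53 on the BRAF lung CD11b+ arrays. In BMDC this mean was 5.41 to 5.49 (WT) and 5.31 to 6.11 (BRAF), and Ms4a1 read 4.17 to 5.19, below the range of the detection floors. None of the 6 was called in any genotype comparison. Plasmacytoid dendritic cells also carry TLR9, and the mean of 7 of their markers was 7.29 and 7.39 (WT) and 7.05 and 7.09 (BRAF) in lung CD11b+ cells but 6.82 to 6.95 (WT) and 7.30 to 7.55 (BRAF) in BMDC, where Cox6a2 was the 1 of 7 called (2.41 ± 0.34, adjusted p 0.00404) and was also called on the mean (0.92 ± 0.20, adjusted p 0.0414). Their defining gene Siglech read 5.97 to 6.21 in BMDC, 6.81 and 7.20 (WT) and 5.96 and 6.15 (BRAF) in lung CD11b+ cells, and 9.61 and 8.19 (WT) and 7.19 and 7.75 (BRAF) in lung CD103+ cells. The lung differences of Siglech, -0.95 ± 0.36 and -1.43 ± 0.36, did not pass (adjusted p 0.507 and 0.239). In liver it differed by 0.38 ± 0.36, which did not pass either. Over the 7 plasmacytoid markers the median difference was -0.25 in lung CD103+ cells (3 positive, 4 negative). In liver that median was 0.03 (4 positive, 3 negative). Of 8 markers of conventional dendritic cells, 1 was called on the mean, the growth factor receptor Kit (-0.82 ± 0.17, adjusted p 0.029). All 8 were negative on the mean (median -0.34 against -0.01 over all genes). In each organ population 7 of 8 were negative, and in BMDC 5 were negative and 3 positive, with none called in a single population. Of the stress and immediate early genes, all 9 had negative differences in lung CD11b+ cells (median -1.28, none called) and on the mean (median -0.50), where Dnajb1, a chaperone gene, was called (-0.88 ± 0.18, adjusted p 0.029). Their mean level was 10.55 and 10.42 on the WT and 9.27 and 9.05 on the BRAF lung CD11b+ arrays, and 7.56 to 7.72 against 7.34 to 7.71 in BMDC. The part of these cells and genes in the Tlr9 values was not tested.

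Between populations Tlr9 was 3.36-fold lower in BMDC than in lung CD11b+ cells (-1.75 ± 0.24, adjusted p 0.000173), and 4 of the 6 B cell markers were called lower in the same comparison. It did not differ past the threshold in lung CD103+ (-0.37 ± 0.26, 95% interval -0.93 to 0.19) or liver CD11b+ cells (-0.22 ± 0.26, 95% interval -0.78 to 0.34). The genes most like Tlr9 in pattern were the receptor kinase Grk3 (r = 0.96), Tagap (0.94) and Usp12 (0.93).

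**Figure D5:**
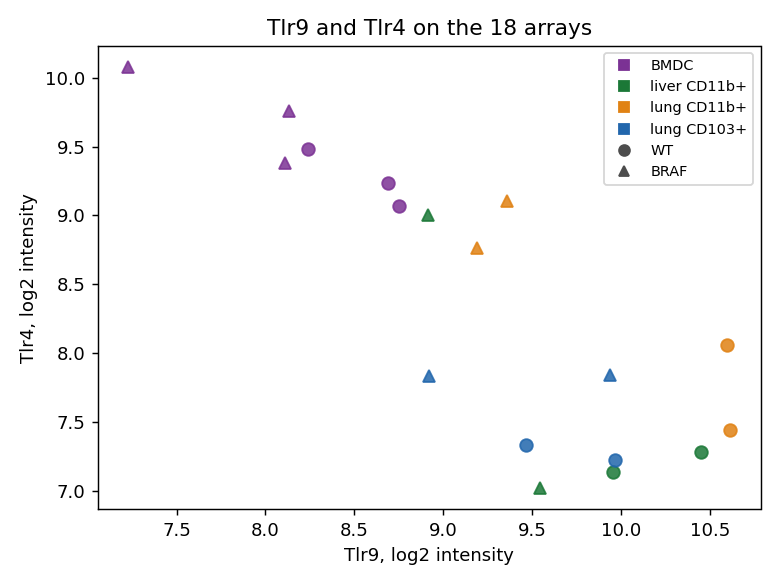
Each point is 1 of the 18 arrays, with Tlr9 on the horizontal and Tlr4 on the vertical axis, both as log2 intensity, coloured by population with circles for WT and triangles for BRAF. The arrays run from low Tlr9 and high Tlr4 in BMDC (BRAF replicate 2 at 7.23 and 10.08) to high Tlr9 and low Tlr4 in WT lung CD11b+ cells (10.61 and 7.44 on replicate 1).

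Tlr4 and Tlr9 ran in opposite directions over the arrays, with a Pearson r of -0.84 and a Spearman rho of -0.82. Without the 2 arrays farthest from the median of Tlr9 (BRAF BMDC replicate 2 and WT lung CD11b+ replicate 1) r was -0.79. Deviations from the 8 group means, which leave out differences of population and of genotype, gave -0.48. The mean of 8 conventional dendritic cell markers had an r of 0.80 with Tlr9 and -0.79 with Tlr4. These r values include the differences between populations. In BMDC minus lung CD11b+ cells 6 of the 8 markers were called lower and none higher, with Tlr9 called lower and Tlr4 higher.

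Tlr13, which encodes a receptor for bacterial ribosomal RNA, was the most even of the endosomal members. It lay between 9.77 and 11.08 on all arrays, with group means from 10.15 ± 0.40 (SD, n = 2) in WT liver to 11.05 ± 0.05 (SD, n = 2) in BRAF lung CD11b+ cells. In both lung populations BRAF (11.08 and 11.01, then 10.86 and 10.63) lay above WT (10.56 and 10.32, then 10.12 and 10.40). Its genotype difference was positive in all 4 populations, as for 4.99% of genes. It was 0.61 ± 0.37 for lung CD11b+ and 0.49 ± 0.37 for lung CD103+ cells, 0.37 ± 0.30 for BMDC and 0.21 ± 0.37 for liver. The liver value ran from -0.38 to 0.80 over 14 other settings and changed sign in 3. On the mean the difference was 0.42 ± 0.17 (adjusted p 0.434). No difference between populations passed.

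Of the family outside the members, Tlr12, which with TLR11 recognises profilin, was near the detection floor in BMDC (5.49 to 5.79) and reached 6.29 to 7.51 in lung CD103+ cells. Its lung CD103+ minus lung CD11b+ difference was 1.00 ± 0.23 (adjusted p 0.0152). Tlr5 was not analysed here.

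The genes that carry Toll-like receptor signals were read from lists. Of the 5 TIR adaptors, 10 ligand binding partners, 12 folding and trafficking genes, 6 processing proteases, 19 signalling genes of the MyD88 and TRIF routes, 10 negative regulators and 22 induced genes tested, none was called between genotypes in any single population by limma. Of all genes, 0.0846% to 0.521% were called in a single population. On the mean over populations 2 of the listed genes were called, where 0.989% of all genes were. Ctsk, which encodes the protease cathepsin K, rose by 2.38 ± 0.45 (adjusted p 0.0191), 1 of 6 proteases. Ccl5, a chemokine gene, fell by 1.73 ± 0.19 (adjusted p 0.000287), 1 of 22 induced genes. The list medians on the mean were 0.02 for adaptors, 0.33 for partners, -0.10 for trafficking and 0.47 for proteases. They were -0.06 for signalling, 0.00 for negative regulators and 0.02 for induced genes, against -0.01 over all genes. In BMDC, liver, lung CD11b+ and lung CD103+ cells in turn, the signalling median was -0.33, 0.19, -0.19 and -0.13. For trafficking it was -0.39, 0.32, -0.33 and -0.21, and for induced genes 0.25, -0.39, -0.15 and 0.34. Over all genes it was 0.00, 0.08, 0.00 and -0.08. Of 19 signalling genes, 17 were negative in BMDC and 15 positive in liver. These differences between populations were not tested.

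In lung CD103+ minus lung CD11b+ cells, where 5.64% of all genes were called, 1 to 3 genes of each list but the induced one were called. Ticam2, the bridging adaptor of TLR4 to TRIF, was the 1 of 5 adaptors called (-1.13 ± 0.18, adjusted p 0.00102), and Cd14, which encodes the lipopolysaccharide co-receptor, the 1 of 10 partners (-2.10 ± 0.46, adjusted p 0.0114). Of 12 trafficking genes, Rab7b was higher (1.76 ± 0.31) and Slc15a3, a lysosomal peptide transporter, lower (-1.54 ± 0.30). The proteases Lgmn (-1.81 ± 0.33), Ctss (-0.93 ± 0.17) and Ctsb (-1.05 ± 0.28), which cut endosomal proteins, were lower, 3 of 6. Of 19 signalling genes 1 was called, Irf8 (2.16 ± 0.35, adjusted p 0.00109), a transcription factor that is also a cDC1 marker. Among 10 negative regulators, Irak3 (-1.74 ± 0.23, adjusted p 0.000234) and Dok3 (-1.37 ± 0.35) were lower and Sigirr (0.66 ± 0.16) higher. Of 22 induced genes 2 were higher and 6 lower, among them Ptgs2, which encodes cyclooxygenase 2 (-4.23 ± 0.46), Socs3 (-1.81 ± 0.26), Nfkbiz (-1.65 ± 0.29) and Il12b, a subunit of interleukin 12 (1.46 ± 0.24). In the same comparison all 9 stress and immediate early genes were negative (median -0.51, Junb called at -0.83 ± 0.21), and 7 of 9 macrophage markers were called lower. Their part in these lists was not tested. The medians ran from -0.99 for proteases and -0.65 for induced genes to 0.06 for adaptors, against 0.03 over all genes.

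In BMDC minus lung CD11b+ cells, where 11.7% of all genes were called, 12 of 22 induced genes were lower and 1 higher, with a median of -0.81 against 0.08 over all genes. Ptgs2 differed by -4.81 ± 0.42 (adjusted p 2.51e-06), the inflammatory cytokine gene Il1b by -3.70 ± 0.38 (adjusted p 1.07e-05), Nfkbiz by -3.09 ± 0.27 and Socs3 by -2.09 ± 0.23. All 9 stress and immediate early genes were negative in the same comparison, and 8 were called lower. Their mean was 7.34 to 7.72 on the BMDC and 9.05 to 10.55 on the lung CD11b+ arrays. Their part in the induced genes was not tested. Both feedback inhibitors called among 10 were lower, Tnfaip3 (-2.65 ± 0.25, adjusted p 5.09e-06) and Nfkbia (-1.40 ± 0.18). In the signalling list 2 of 19 were higher, among them Peli2 (1.45 ± 0.20), and 3 were lower, Peli1 (-1.48 ± 0.30), Irf7 (-1.48 ± 0.35) and Ikbkb (-0.96 ± 0.26). Dnase2a, a lysosomal nuclease gene, was higher (0.97 ± 0.18) and Cd14 (-1.46 ± 0.42) and Ly86 (-0.68 ± 0.20) lower among 10 partners. Lgmn (-1.04 ± 0.30) and Ctsl (1.5 ± 0.45) were the 2 of 6 proteases called, Slc15a4 (-1.06 ± 0.30) was the 1 of 12 trafficking genes, and none of 5 adaptors was called.

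In liver minus lung CD11b+ cells, where no receptor passed and 2.12% of all genes were called, 7 of 22 induced genes were lower, among them the cytokine gene Il1a (-3.03 ± 0.54, adjusted p 0.0098), Ptgs2 (-2.23 ± 0.46), Nfkbiz (-1.71 ± 0.29) and the costimulatory Cd80 (-1.19 ± 0.25). Cd36, a scavenger receptor that assists TLR2, was the 1 of 10 partners called (-2.20 ± 0.32, adjusted p 0.00302), and Tnfaip3 the 1 of 10 negative regulators (-1.69 ± 0.27). No adaptor, trafficking gene, protease or signalling gene was called there. Of the 9 stress and immediate early genes, 7 were negative and 2 positive in this comparison (median -0.45 against 0.02 over all genes), and 2 were called lower. Their part in the induced genes was not tested.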

How the data were processed

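The authors deposited 1 table of linear intensity for 18 arrays. Their normalization of the intensity values: not given in the sources used here. Per the labels' protocols, Trizol was used for RNA and biotin for the label.

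All else was computed here. The log2 of the deposited intensity was taken with no added constant and no further normalization. Of 24922 probe sets, 21425 had 1 gene symbol in the platform annotation, 1399 several and 2098 were not listed. For 921 genes with more than 1 probe set, that of highest mean was kept. A gene was tested if above the 30th percentile of the array on at least 2 arrays. Group means were fitted in R 4.3.3 with limma 3.58.1 (lmFit, eBayes; 10 residual and 4.83 prior degrees of freedom), and p-values were Benjamini-Hochberg adjusted over 15365 genes. The number of arrays limits the precision. The code was tested on simulated data.

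The members and gene lists were chosen with earlier results of these data known. All members are named, with up to 4 called genes of smallest p per list and comparison, and the 3 genes of highest r for each member spanning at least 2 log2 units. Markers named beside Tlr7, Tlr8 and Tlr9 (Mrc1, Adgre1, Ms4a1, Siglech) were chosen after their values were seen. Alternatives were other scaling, filters, probe set rule, eBayes settings, array weights, samples fitted, a replicate block, leaving out each array and, added after the data were seen, a random block of organ arrays of 1 number and genotype.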

Additional observations from a re-analysis of the deposited data

How the results depend on the processing

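Over the 9 comparisons, 144 of 170 recomputed counts of called members stayed within 1.5 times the value given. Single values were counted only for members with an unadjusted p under 0.05 (limma) or a call under any setting. Of these 756 values, 697 kept their sign and side of the threshold, 29 lost a call, 23 gained one and 7 changed sign. Results outside this count were never called, and some changed sign. Examples are Tlr13 in liver (3 of 14 settings) and Tlr6 in liver minus lung CD11b+ cells (3 of 18). Tlr1 in both called comparisons, Tlr3 in lung CD103+ minus lung CD11b+ cells and Tlr9 in BMDC minus lung CD11b+ cells were called under every alternative run. On the mean over populations the 1 call became 0 after median centring and 0 with a replicate block within BMDC (Tlr9 -0.83, adjusted p 0.0643), and 0 to 3 when 1 array was left out. In BMDC, deviations from the group means on arrays of the same number had r of 0.469, -0.231 and -0.399. With 3 arrays a group these values cannot settle whether the numbers pair samples, which the labels do not say. In the lung r was 0.159 (WT) and 0.22 (BRAF) and Xist and Eif2s3y followed the number. A replicate block over the lung arrays kept the 4 calls of lung CD103+ minus lung CD11b+ cells, and a random block of organ arrays of 1 number and genotype, chosen after seeing the data (consensus correlation -0.0608), changed no call of a member (Tlr9 on the mean -0.83, adjusted p 0.024). With array weights (0.109 to 6.03) 6 members were called in BMDC (Tlr1 1.01, Tlr2 -0.60, Tlr3 0.95, Tlr6 0.49, Tlr9 -0.56, Tlr13 0.69) and 1 in lung CD11b+ cells (Tlr9, adjusted p 0.0102). A fit of only the groups compared also called 1 there (Tlr9, adjusted p 0.0396), and it lost Tlr7 and Tlr8 in lung CD103+ minus lung CD11b+ cells (adjusted p 0.125 and 0.13). Leaving out 1 array gave 0 to 2 calls between genotypes in lung CD103+ cells, 0 to 1 in liver, 0 to 2 in the F test, 0 to 2 in liver minus lung CD11b+ cells (Tlr3 -0.81 and Tlr4 -1.23 without BRAF liver replicate 2) and 2 to 4 in lung CD103+ minus lung CD11b+ cells. Tlr6 in BMDC was -0.13 after quantile normalization, -0.059 after median centring and from -0.26 to 0.42 with 1 array left out, and Tlr4 in liver from -0.19 to 1.80. Over all genes, counts moved from 80 to between 20 and 1658 between genotypes in BMDC, from 33 to between 1 and 358 in liver, from 52 to between 7 and 369 in lung CD11b+, from 13 to between 0 and 96 in lung CD103+ cells, from 152 to between 67 and 324 on the mean and from 19 to between 5 and 249 in the F test, and from 867 to between 580 and 1357, from 325 to between 81 and 1220 and from 1802 to between 1023 and 4951 for lung CD103+, liver and BMDC minus lung CD11b+ cells. The causes were not tested.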

Other observations

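Cytosolic sensors of nucleic acids and bacterial products, which act beside Toll-like receptors, were read in the same comparisons. Of 14 tested, 5 were lower in lung CD103+ than in lung CD11b+ cells and none was higher, where 5.64% of all genes were called, with a median of -0.36. Ddx58, which encodes the RNA sensor RIG-I, differed by -1.78 ± 0.25 (adjusted p 0.000314, limma), Nod1, a sensor of bacterial peptidoglycan, by -1.71 ± 0.30, Nlrc4, an inflammasome component, by -1.51 ± 0.26, and Zbp1 by -0.81 ± 0.19. In the same comparison 7 of 9 macrophage markers were called lower, and their part was not tested. In liver minus lung CD11b+ cells (2.12% of all genes called) Nlrp3 (-1.09 ± 0.21) and Naip2 (-0.62 ± 0.14) were lower, and in BMDC minus lung CD11b+ cells (11.7% of all genes called) 1 of 14 was, Nod1 (-1.16 ± 0.28). None of the 14 was called in any genotype comparison by limma, where 0.0846% to 0.989% of all genes were.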
